A study of Mus musculus with 16 samples.

Results

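The 35 mouse genes described here encode proteins of the Fanconi anaemia pathway, of homologous recombination and of the replication checkpoint. They were taken by symbol from the gene identifiers of the RNA tables, where all 35 were found among 48709 genes and all 35 were among the 15982 genes with enough counts to be tested. The study sorted organ of Corti progenitors, the cells that build the hearing organ of the cochlea, by flow cytometry from embryonic mice. At E13.5 the sorted cells were p27-GFP+, and at E12.0 they were Sox2-GFP+, so that age and sorting reporter changed together and cannot be told apart. No mutant and no drug treatment is named in the labels, which also do not say how the reporters were built or whether replicates came from separate litters. RNA-seq was made in 2 libraries per stage, ATAC-seq of open chromatin in 3 per stage, and CUT&RUN of the histone mark H3K27ac in 2 per stage. CUT&RUN with an antibody to all Tead proteins, the DNA-binding partners of Yap, was made in 2 libraries at E12.0. The study's title asks how Yap and Tead govern the size of the organ of Corti through progenitor self-renewal, and the comparison of stages given here is E13.5 over E12.0.

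The Fanconi pathway acts when a replication fork meets a crosslink between the strands of DNA. Its core complex attaches ubiquitin to FANCD2 and FANCI, and the marked proteins bring in nucleases and the recombination machinery, in which BRCA1, PALB2 and BRCA2 act at resected ends. RPA coats the exposed strand and calls the kinase ATR through ATRIP, and ATR signals through TOPBP1 and claspin to CHK1, while ATM signals to CHK2 at broken ends. In the mouse cochlea the prosensory cells leave the cell cycle at about these ages, and p27, made by Cdkn1b, is an inhibitor of the cell cycle that appears as they do. Many of these repair genes are known from other cells to be transcribed at the start of DNA replication by E2F factors, whose sites often stand near a CCAAT box in the promoter.

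Promoter stretches are printed for members with the largest falls that held a motif, and for Topbp1, where Tead intervals lay near the start. They were read from RefSeq promoter windows of the build GRCm38.p6, 5′ to 3′ on the strand of the gene, with capitals marking a match to an E2F-like octamer or to CCAAT. The E2F-like matches of Topbp1 (chr9:103305187-103305216, + strand), Bard1 (chr1:71103163-71103192, - strand) and Chek2 (chr5:110839820-110839849, + strand) are shown within 30 bases each.
Topbp1: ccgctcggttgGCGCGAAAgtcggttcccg
Bard1: ccgccgctcagTTTCCCGCtcaggaagttt
Chek2: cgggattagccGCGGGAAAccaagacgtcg
The stretches of Topbp1 and Chek2 lie within the span of their own annotated genes, before the start used here, and that of Bard1 lies just outside its gene.

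The CCAAT matches come from Rad54l (chr4:116123701-116123839, - strand), Fancb (chrX:164980380-164980409, + strand) and Brca1 (chr11:101551956-101552106, - strand). The Brca1 stretch is the whole gap between Brca1 and Nbr1, the gene that starts on the other strand, and both starts would read it in opposite directions.
Rad54l: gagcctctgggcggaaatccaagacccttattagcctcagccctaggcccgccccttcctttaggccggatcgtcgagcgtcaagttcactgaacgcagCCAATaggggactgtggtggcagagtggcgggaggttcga
Fancb: ctccacactgtCCAATcccatagtgttgtc
Brca1: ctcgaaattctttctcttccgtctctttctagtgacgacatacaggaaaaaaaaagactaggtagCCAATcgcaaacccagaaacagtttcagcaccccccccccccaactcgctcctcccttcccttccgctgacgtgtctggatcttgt

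In the 250 bases before the start, 31 of the 35 genes had a window, 34 windows in all because a few genes have more than 1 start. CCAAT, on either strand, was found in 23 of these 34 windows, or 67.6%, against 35.1% of the windows of all genes with RNA tested and 33.8% of all windows. An E2F-like octamer (TTTCCCGC, TTTCGCGC, TTTGCCGC or TTTGGCGC, either strand) was found in 5 windows, or 14.7%, against 3.17% of the windows of tested genes and 1.86% of all windows. These 5 were Bard1, Brca2, Chek2, Fancg and Topbp1, of which Bard1, Chek2 and Topbp1 fell in RNA. The cell cycle element TTTGAA was found in 1 window, that of Bard1, or 2.94%, against 10.5% of the windows of tested genes. The Tead motif GGAATG was found in 3 windows, those of Fancc, Fancm and Rpa2, or 8.82%, against 10.7% of the windows of tested genes. CCAAT stood in 12 of the 17 windows of members that fell and in 11 of the 17 windows of the other members, and no matches of different motifs shared a base.

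The RNA libraries held 17057751 and 19570946 expected counts at E13.5, against 9412326 and 9810603 at E12.0. Sox2 had 152.3 and 168.6 CPM (counts scaled to library size with TMM factors) at E13.5, against 36.9 and 39.4 CPM at E12.0, and Cdkn1b had 228.5 and 182.3 CPM at E13.5, against 7.70 and 8.59 CPM at E12.0. Of 8 prosensory markers 5 rose and 2 fell, and their summed level was 4607 to 4764 CPM at E13.5, against 2006 to 2145 CPM at E12.0. Of 7 epithelium markers 2 rose and 2 fell, and their summed level was 1398 to 1779 CPM at E13.5, against 2720 to 2895 CPM at E12.0. Of 6 hair cell markers 2 rose and 1 fell, and their summed level was 64.5 to 71.2 CPM at E13.5, against 50.7 to 52.3 CPM at E12.0. The summed level of 8 mesenchyme markers was 372.1 to 466.3 CPM at E13.5, against 1148 to 1280 CPM at E12.0, nearly all of it Lum. Of the 6 tested, Lum and Postn fell and none rose. Postn had 4.62 and 12.25 CPM at E13.5, against 26.55 and 37.78 CPM at E12.0, and Prrx1 and Twist1 were under 1 CPM in every library. The summed level of 6 glia and neural crest markers was 646.0 to 681.5 CPM at E13.5, against 1792 to 2102 CPM at E12.0, most of it Erbb3, with Foxd3 below 1 CPM in every library. Erbb3 fell, with 434.7 and 457.1 CPM at E13.5, against 1708 and 2004 CPM at E12.0, whereas Sox10, of the same list, rose, with 181.3 and 201.6 CPM at E13.5, against 49.5 and 51.8 CPM at E12.0. The summed level of 10 neuron markers was 25.2 to 27.1 CPM at E13.5, against 47.6 to 58.4 CPM at E12.0. Of the 7 tested, 2 fell and none rose, while Tubb3 was higher in both E13.5 libraries but did not pass. Neurog1 was not tested, and was at 0 in both E13.5 libraries, against 0.413 and 1.53 CPM at E12.0. The summed levels of endothelium, erythroid and immune markers were at most 4.54, 1.30 and 11.97 CPM in any library. The summed level of 6 melanocyte markers was 4.67 to 27.9 CPM at E13.5, against 3.30 to 4.26 CPM at E12.0. The mitochondrial ribosomal RNA mt-Rnr2 took 0.295% and 0.18% of counts at E13.5, against 17.0% and 13.2% at E12.0. With all mitochondrial genes left out the counts of members called did not change, and the part of the other differences in what follows was not tested. In bulk RNA, fewer cells of a type and less RNA per cell cannot be told apart. Each p-value sets a difference only against how far libraries of a stage differed. The fit partly shares that spread across genes, and it may be technical.

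The test called 23 of the 35 genes (65.7%, against 45.9% of all genes tested). Of the 35 genes, 19 fell at E13.5 (54.3%, against 23.5% of all genes tested) and 4 rose (11.4%, against 22.4%), by edgeR's quasi-likelihood test at a Benjamini-Hochberg adjusted p under 0.05. Both E13.5 libraries lay below both E12.0 libraries for 24 genes, an order that 36.1% of all genes tested showed, and above them for 6, an order that 39.3% showed. In the other 5 genes the stages overlapped. The median log2 fold change of the 35 was -1.05, against 0.05 over all genes tested, and 28 of them had a value below 0. On TPM, a scale that also divides by a gene's length, the median of all genes was 0.755 on the log2(TPM + 1) scale. Relative to all genes the median of the 35 was then -1.09, against -1.10 on TMM-scaled counts.

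**Figure D1:**
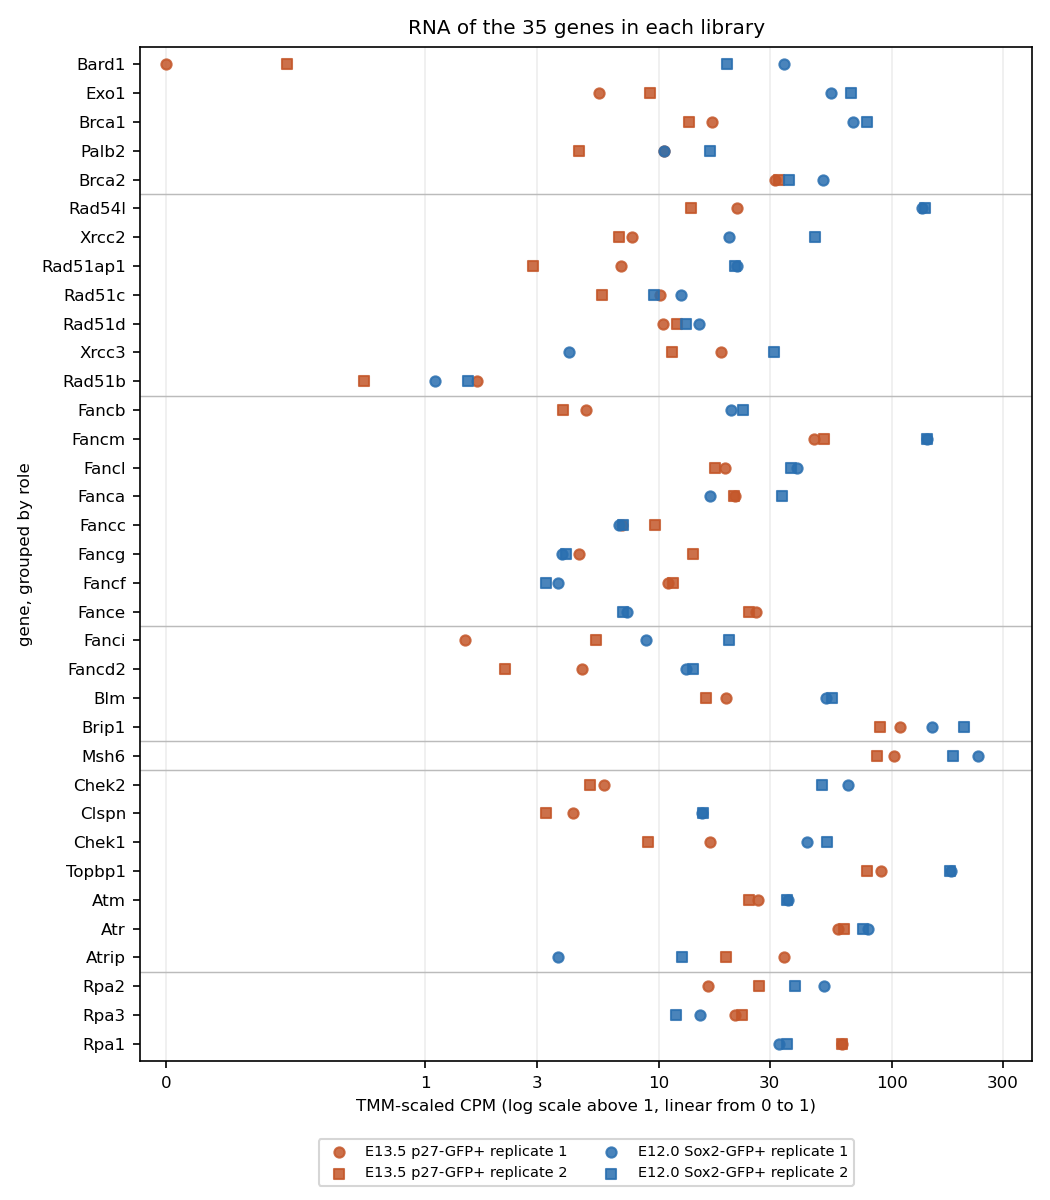
RNA level of each of the 35 genes (rows, grouped by role) in each library, in TMM-scaled CPM on an axis that is logarithmic above 1 and linear from 0 to 1. Orange marks are the 2 E13.5 libraries and blue marks the 2 E12.0 libraries. The orange marks lie left of both blue marks in 24 rows and right of both in 6.

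Among the genes of the BRCA complexes and end resection, 3 of 5 fell and none rose, with a median log2 fold change of -2.27. Bard1 (chr1:71027535-71103141), the partner that forms a ubiquitin ligase with BRCA1, had 0 and 0.466 CPM at E13.5, against 34.5 and 19.7 CPM at E12.0. These values stand for 0 and 11 expected counts at E13.5, against 251 and 167 at E12.0, so the gene was close to undetected in the later cells. Its log2 fold change was -6.76 ± 0.89 (SE, edgeR adjusted p = 0.000234), and -5.83 without E13.5 replicate 1. In E13.5 replicate 1 alone the gene was at 0, and a floor of 3 counts in that library, or 0.143 CPM, stands 189.6-fold below the E12.0 mean. That floor allows for counting noise only and is no lower bound of the fall, which was 108.4-fold in the fit of all libraries.

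Exo1 (chr1:175880768-175911396), a nuclease that resects ends and excises mismatches, had 5.57 and 9.15 CPM at E13.5, against 54.9 and 67.0 CPM at E12.0. Brca1 (chr11:101488761-101551955) had 16.96 and 13.52 CPM at E13.5, against 68.5 and 78.2 CPM at E12.0. The stages were far apart for both genes, and in proportion the libraries of a stage differed most for Exo1 at E13.5. Exo1 was 8.26-fold lower (log2 -3.05 ± 0.36, edgeR adjusted p = 0.000127), and Brca1 was 4.81-fold lower (log2 -2.27 ± 0.30, edgeR adjusted p = 0.000218).

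Brca2, a central mediator of homologous recombination, did not pass the test. It had 31.5 and 32.9 CPM at E13.5, against 50.9 and 36.4 CPM at E12.0, and the difference was -0.44 ± 0.30 on the log2 scale (edgeR adjusted p = 0.261). Palb2, the bridge between BRCA1 and BRCA2, had 10.5 and 4.58 CPM at E13.5, against 10.6 and 16.6 CPM at E12.0 (log2 -0.85 ± 0.53, edgeR adjusted p = 0.214). Both genes lay lower in each E13.5 library, and the gap between the nearest libraries of the stages was small.

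Of 7 genes of strand invasion (Rad51ap1, Rad51b, Rad51c, Rad51d, Rad54l, Xrcc2 and Xrcc3), 3 fell and none rose, and their median log2 fold change was -0.47 on TMM-scaled counts and 0.40 on the TPM scale, where it is -0.36 relative to all genes. Rad54l (chr4:116094261-116123700), a motor protein that helps a broken end invade a partner strand, had 21.8 and 13.8 CPM at E13.5, against 134.9 and 139.4 CPM at E12.0. Xrcc2 had 7.72 and 6.78 CPM at E13.5, against 20.1 and 46.7 CPM at E12.0. Rad51ap1, which stimulates strand invasion, had 6.91 and 2.88 CPM at E13.5, against 21.7 and 21.3 CPM at E12.0. In these 3 genes the stages did not overlap, and the E12.0 libraries of Xrcc2 were the most uneven. Rad54l was 7.71-fold lower (log2 -2.95 ± 0.30, edgeR adjusted p = 5.15e-05), Xrcc2 4.61-fold lower (log2 -2.21 ± 0.45, edgeR adjusted p = 0.00285) and Rad51ap1 4.40-fold lower (log2 -2.14 ± 0.50, edgeR adjusted p = 0.0061). Without E12.0 replicate 2 the log2 fold change of Xrcc2 was -1.48 (edgeR adjusted p = 0.0378), and without E13.5 replicate 1 that of Rad51ap1 was -2.89.

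The other 4 genes, which encode subunits of accessory complexes of recombination, did not pass the test. Their log2 fold changes were -0.12 for Rad51b, -0.25 for Xrcc3, -0.32 for Rad51d and -0.47 for Rad51c, with edgeR adjusted p between 0.468 and 0.919. On the TPM scale all 4 of these values were above 0. Rad51b was the lowest of them, with 1.67 and 0.763 CPM at E13.5, against 1.10 and 1.53 CPM at E12.0. Xrcc3 had 18.6 and 11.4 CPM at E13.5, against 4.13 and 31.4 CPM at E12.0, so that its E12.0 libraries lay on either side of the E13.5 ones. Without E12.0 replicate 2 its log2 fold change was 1.86 (edgeR adjusted p = 0.0382), and without E12.0 replicate 1 it was -1.08 (edgeR adjusted p = 0.0805).

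The 8 genes of the Fanconi core complex were split: 3 fell, 2 rose and 3 did not pass, with a median log2 fold change of 0.01 on TMM-scaled counts and -0.72 relative to all genes on the TPM scale. Fancb and Fancl belong to the catalytic module, in which FANCL is the ubiquitin ligase. Fancb (chrX:164980480-164997272) had 4.91 and 3.90 CPM at E13.5, against 20.5 and 23.1 CPM at E12.0. Fancl had 19.2 and 17.5 CPM at E13.5, against 39.2 and 37.0 CPM at E12.0. Neither gene overlapped between stages. Fancb was 4.94-fold lower (log2 -2.31 ± 0.43, edgeR adjusted p = 0.00173) and Fancl 2.07-fold lower (log2 -1.05 ± 0.31, edgeR adjusted p = 0.0188). Fancm, the translocase that anchors the complex to DNA, had 46.3 and 51.4 CPM at E13.5, against 142.0 and 141.1 CPM at E12.0. It was 2.90-fold lower (log2 -1.54 ± 0.24, edgeR adjusted p = 0.000672).

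FANCC, FANCE and FANCF form another module of the core, which meets the FANCD2 and FANCI substrate. Fance (chr17:28313530-28326574) had 26.3 and 24.3 CPM at E13.5, against 7.29 and 7.06 CPM at E12.0. Fancf (chr7:51860577-51862267) had 11.0 and 11.5 CPM at E13.5, against 3.71 and 3.30 CPM at E12.0. Both genes were higher in each E13.5 library by a wide margin. Fance was 3.52-fold higher (log2 1.82 ± 0.38, edgeR adjusted p = 0.00337) and Fancf 3.20-fold higher (log2 1.68 ± 0.53, edgeR adjusted p = 0.0243). The E12.0 values of Fancf rest on 27 and 28.05 expected counts, and its adjusted p was 0.0537 to 0.0685 with any 1 of the 4 libraries left out. Fancc had 6.95 and 9.71 CPM at E13.5, against 6.74 and 7.06 CPM at E12.0, overlapped between stages, and did not pass (log2 0.27 ± 0.51, edgeR adjusted p = 0.691).

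FANCA and FANCG make up the remaining module. Fanca had 21.2 and 21.2 CPM at E13.5, against 16.6 and 33.9 CPM at E12.0, and overlapped (log2 -0.26 ± 0.39, edgeR adjusted p = 0.616). Fancg had 4.57 and 14.0 CPM at E13.5, against 3.85 and 4.002 CPM at E12.0, and did not pass either (log2 1.24 ± 0.65, edgeR adjusted p = 0.141). Only E13.5 replicate 2 of Fancg stood well above the E12.0 libraries. Without E13.5 replicate 1 its log2 fold change was 1.84 (edgeR adjusted p = 0.0296), and without E13.5 replicate 2 it was 0.22.

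Downstream of the core complex, Fancd2, Fanci, Brip1 and Blm all fell, and the median of their log2 fold changes was -1.79. Fancd2, the protein that carries the ubiquitin mark, had 4.72 and 2.20 CPM at E13.5, against 13.1 and 14.0 CPM at E12.0. Fanci, its partner, had 1.48 and 5.38 CPM at E13.5, against 8.80 and 20.0 CPM at E12.0. Fanci varied more than 2-fold within each stage, whereas Fancd2 was even at E12.0. Fancd2 was 3.91-fold lower (log2 -1.97 ± 0.56, edgeR adjusted p = 0.0152) and Fanci 4.19-fold lower (log2 -2.07 ± 0.69, edgeR adjusted p = 0.0311). The log2 fold change of Fancd2 was -2.61 without E13.5 replicate 1, and -1.52 without E13.5 replicate 2 (edgeR adjusted p = 0.0623). That of Fanci was -1.37 without E12.0 replicate 2 (edgeR adjusted p = 0.226), -1.42 without E13.5 replicate 1 (edgeR adjusted p = 0.0899) and -3.28 without E13.5 replicate 2.

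Blm, a RecQ helicase that unwinds recombination intermediates, had 19.5 and 16.02 CPM at E13.5, against 52.4 and 55.7 CPM at E12.0. Brip1, a helicase that binds BRCA1 and is also known as FANCJ, had 108.9 and 89.1 CPM at E13.5, against 149.1 and 205.2 CPM at E12.0. Msh6, which senses mismatches, had 102.6 and 86.4 CPM at E13.5, against 235.1 and 183.5 CPM at E12.0. In all 3 genes each E13.5 library lay below each E12.0 library. Blm was 3.05-fold lower (log2 -1.61 ± 0.30, edgeR adjusted p = 0.00178), Msh6 2.22-fold lower (log2 -1.15 ± 0.25, edgeR adjusted p = 0.00422) and Brip1 1.79-fold lower (log2 -0.84 ± 0.26, edgeR adjusted p = 0.0233). On the log2(TPM + 1) scale the difference of Brip1 was -0.02 (limma adjusted p = 0.975), or -0.77 relative to all genes.

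**Figure D2:**
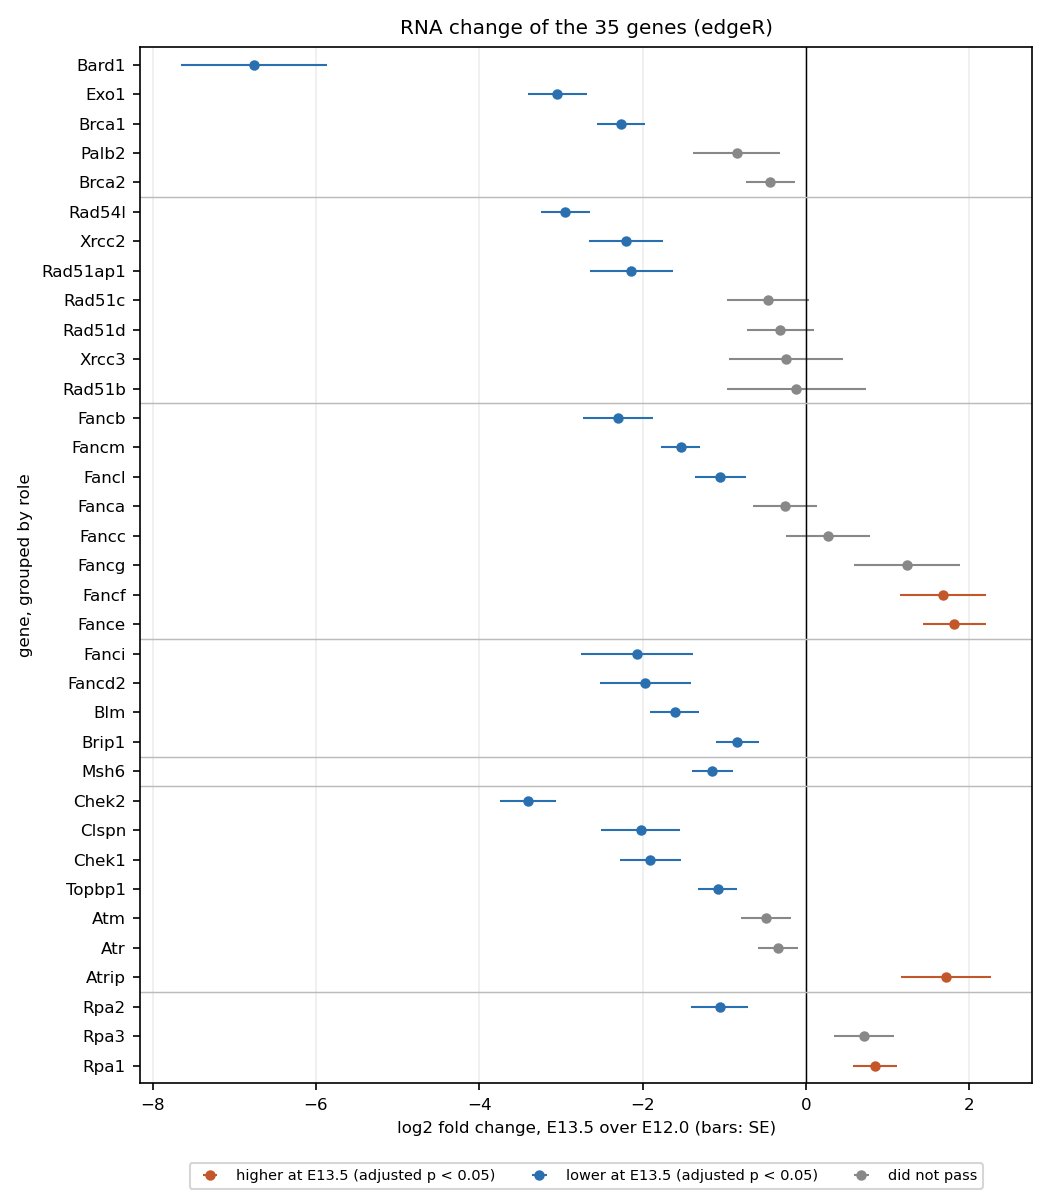
Log2 fold change of each of the 35 genes, E13.5 over E12.0, with its SE as a bar, from edgeR on TMM-scaled expected counts. Orange marks rose (4 genes), blue marks fell (19 genes) and grey marks did not pass (12 genes). Bard1 stands farthest left at -6.76 and Fance farthest right at 1.82.

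In the checkpoint branch 4 of 7 genes fell and 1 rose, with a median log2 fold change of -1.08. Chek2 (chr5:110839800-110874140), the kinase that ATM activates, had 5.81 and 5.09 CPM at E13.5, against 65.1 and 50.4 CPM at E12.0. Chek1, the kinase that ATR activates, had 16.7 and 8.99 CPM at E13.5, against 43.3 and 52.9 CPM at E12.0. Clspn, which encodes claspin, had 4.29 and 3.31 CPM at E13.5, against 15.4 and 15.5 CPM at E12.0. The stages lay far apart in all 3 genes, and farthest in Chek2. Chek2 was 10.6-fold lower (log2 -3.40 ± 0.34, edgeR adjusted p = 4.70e-05), Clspn 4.07-fold lower (log2 -2.03 ± 0.48, edgeR adjusted p = 0.00651) and Chek1 3.75-fold lower (log2 -1.91 ± 0.37, edgeR adjusted p = 0.00231).

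Topbp1 (chr9:103305167-103350428), the activator of ATR, had 90.4 and 78.6 CPM at E13.5, against 180.3 and 177.4 CPM at E12.0. It was 2.12-fold lower (log2 -1.08 ± 0.24, edgeR adjusted p = 0.00425). The apical kinases did not pass the test. Atr had 58.9 and 62.2 CPM at E13.5, against 78.8 and 75.3 CPM at E12.0 (log2 -0.35 ± 0.24, edgeR adjusted p = 0.266). Atm had 26.6 and 24.5 CPM at E13.5, against 36.0 and 35.7 CPM at E12.0 (log2 -0.49 ± 0.30, edgeR adjusted p = 0.207). Both were slightly lower in each E13.5 library. On the log2(TPM + 1) scale the difference was 0.46 for Atr and -0.91 for Atm (limma adjusted p = 0.0519).

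Atrip, the partner that brings ATR to RPA, rose instead. It had 34.6 and 19.4 CPM at E13.5, against 3.71 and 12.6 CPM at E12.0, and its libraries did not overlap, although they varied within each stage. It was 3.29-fold higher (log2 1.72 ± 0.55, edgeR adjusted p = 0.0269). Its log2 fold change was 1.08 without E12.0 replicate 1 (edgeR adjusted p = 0.116) and 2.86 without E12.0 replicate 2. Of the RPA subunits, Rpa1 had 61.5 and 61.3 CPM at E13.5, against 32.9 and 35.4 CPM at E12.0. It was 1.80-fold higher (log2 0.85 ± 0.27, edgeR adjusted p = 0.0254), but its adjusted p was 0.0647 to 0.108 with any 1 of the 4 libraries left out.

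Rpa2, whose product is phosphorylated by the checkpoint kinases, had 16.2 and 26.9 CPM at E13.5, against 51.2 and 38.6 CPM at E12.0. It was 2.08-fold lower (log2 -1.06 ± 0.35, edgeR adjusted p = 0.0301). Rpa3, the small subunit, had 21.3 and 22.7 CPM at E13.5, against 15.0 and 11.9 CPM at E12.0, and did not pass (log2 0.71 ± 0.37, edgeR adjusted p = 0.135). The 3 subunits of a single complex thus had 1 gene that rose, 1 that fell and 1 that did not pass.

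With each RNA library left out in turn, 15 of the 23 called genes passed in all 4 fits. Of these 15, 14 fell, and Fance was the only one that rose. The 8 others were Atrip, Brip1, Fancd2, Fancf, Fanci, Fancl, Rpa1 and Rpa2, each of which missed the threshold in at least 1 fit. Without E12.0 replicate 1, 1 of the 35 genes rose, and without E13.5 replicate 1 or E13.5 replicate 2, 2 genes rose. With limma on log2(TPM + 1), Rad51ap1, Xrcc2, Fancd2, Fanci, Fancl, Fancm, Brip1, Msh6, Chek1, Clspn and Rpa2 no longer passed, on a scale where the median of all genes lies above 0. With that median set to 0 in each library, 9 of these 11 genes passed again, whereas Brip1 and Rpa2 did not, and neither did Fance (log2 0.62) or Atrip (log2 1.35). Calls were gained as well: Brca2, Fancg (log2 1.41) and Rpa3 (log2 1.64) passed on log2(TPM + 1), and Brca2 (log2 -2.10), Atm (log2 -1.66) and Fanca (log2 -1.04) passed with the median set to 0.

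On a scale per length, the highest mean TPM levels at E13.5 were 99.9 for Rpa3, 60.5 for Topbp1, 56.1 for Rpa1, 51.9 for Fance and 51.1 for Msh6. The lowest at E13.5 were 0.0925 for Bard1, 1.95 for Fanci and 2.32 for Fancd2. At E12.0 the highest mean TPM levels were 152.6 for Topbp1, 62.8 for Msh6, 48.5 for Rad54l and 48.3 for Exo1, and the lowest were 2.09 for Rad51b and 2.82 for Fancf. These levels depend on the length deposited with each gene, an average over its transcripts weighted by their abundance in that library. For Topbp1 that length was 2853 and 3930 bases at E13.5, against 1560 and 1652 bases at E12.0.

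The deposited length was longer in both E13.5 libraries than in both E12.0 libraries for 11 of the 35 genes (31.4%, against 19.7% of all genes tested) and shorter for 9 (25.7%, against 22.6%). For Brca2 it was 5522 and 4086 bases at E13.5, against 1275 and 1629 bases at E12.0. For Atm it was 6816 and 5227 bases at E13.5, against 1954 and 3168 bases at E12.0. In both genes the weighting at E12.0 thus favoured shorter transcripts, and the stages did not overlap. The log2(TPM + 1) fold change of Brca2 was -1.36 and passed the limma test, whereas its value on counts did not pass. For Fance the length was 1290 and 1230 bases at E13.5, against 589 and 615 bases at E12.0. Fance rose on counts and on log2(TPM + 1), but did not pass with the TPM median of each library set to 0. The part of length in its rise on counts was not tested. The libraries also differed in the bases that the effective length leaves out, a median of 189.2 and 188.3 at E13.5, against 146.0 and 140.9 at E12.0. The part of fragment length in these differences was not tested.

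**Figure D3:**
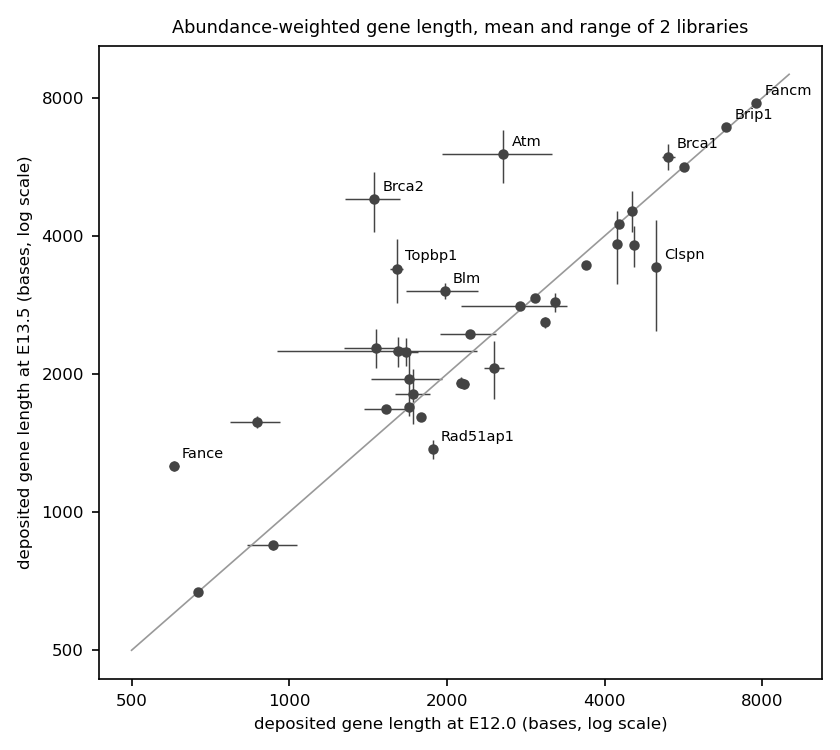
Deposited gene length of the 35 genes at E13.5 (vertical axis) and at E12.0 (horizontal axis), in bases on log scales, as the mean of 2 libraries with their range as bars. The line marks equal length. Brca2, Atm, Topbp1 and Fance lie well above it, with longer averages in both E13.5 libraries.

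Other repair genes, listed by pathway, were described with the same test. Each counted once, 123 of them were tested, of which 34 fell (27.6%, against 23.5% of all genes) and 17 rose (13.8%, against 22.4%), with a median log2 fold change of -0.18. Of 21 other homologous recombination genes 4 fell and 3 rose, with the largest rise in Sfr1 (log2 2.44). Of 20 other Fanconi and crosslink genes 5 fell and 5 rose, from Mad2l2 (log2 -2.82) to the nuclease subunit Ercc1 (log2 1.84). Of 21 other checkpoint genes 7 fell and none rose, with the largest fall in the phosphatase gene Cdc25b (log2 -3.81).

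Of 13 other genes listed under helicases and dissolution, not all of them helicases, 5 fell and 1 rose, from Rmi2 (log2 -2.53) to Recql5 (log2 2.05). Of 9 mismatch repair genes 2 fell and 2 rose, from Pcna, the sliding clamp of replication (log2 -3.02), to Mlh3 (log2 1.95). Of 14 end joining genes 2 fell and 1 rose, from the polymerase Polq (log2 -1.93) to the ligase Lig3 (log2 0.90). Of 25 excision repair genes 9 fell and 5 rose, with the largest fall in Ung (log2 -2.89). Every one of these lists but the checkpoint list held both genes that fell and genes that rose.

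Several of the 35 genes share a promoter region with a neighbour. A protein-coding gene started within 1 kb on the other strand for 12 of them, and both genes were tested in 10 of these pairs. The partner rose in 4 of the 10 pairs, where 22.4% of all genes tested rose, fell in 1, where 23.5% fell, and did not pass in 5. Brca1 fell (log2 -2.27) while Nbr1, an autophagy receptor gene that starts 152 bases away, rose, with a mean of 168.7 CPM at E13.5, against 60.3 CPM at E12.0 (log2 1.48, edgeR adjusted p = 0.00121). Fancb fell (log2 -2.31) while Mospd2, which overlaps it by 26 bases, rose, with a mean of 23.6 CPM at E13.5, against 10.4 CPM at E12.0 (log2 1.17, edgeR adjusted p = 0.0390). The opposite case was Fancf, which rose (log2 1.68) beside Gas2, which overlaps it by 477 bases and fell to a mean of 388.1 CPM at E13.5, against 1031 CPM at E12.0 (log2 -1.41, edgeR adjusted p = 0.0028).

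Rpa1 (log2 0.85) and Smyd4 (log2 1.66) both rose, and their starts lie 50 bases apart. Dctn5 rose beside Palb2 (log2 0.92, edgeR adjusted p = 0.0173), where Palb2 itself did not pass. Since the sources used here do not say whether counting used strand, reads in overlapping stretches cannot be told apart. Besides Fancf and Fancb this touches Rad54l, whose gene overlaps Lrrc41 over 2849 bases, and Fanca, Fanci and Xrcc3, whose genes overlap Zfp276, Polg and Klc1. Lrrc41 (log2 2.73), Zfp276 (log2 2.13), Polg (log2 1.05) and Klc1 (log2 0.98) all rose, whereas none of the 4 genes that they overlap did. Other overlaps ran in the same direction: Msh6 and Fbxo11 (log2 -3.06), which share 34 bases, both fell, and Rpa1 and Smyd4, which share 22 bases, both rose. Fancl overlaps Vrk2 over 486 bases, where Vrk2 did not pass (log2 -0.86, edgeR adjusted p = 0.149). Fancc and Atr overlap Aopep, over 24763 bases, and 1700065D16Rik, over 286 bases, and neither of these neighbours was tested. Atrip (chr9:109059747-109074124) overlaps the long noncoding RNA gene Atrip-trex1 over 14351 bases, nearly its whole span. Both lie on the same strand with starts 27 bases apart, so that strand would not separate their reads, and Atrip-trex1 was not tested.

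**Figure D4:**
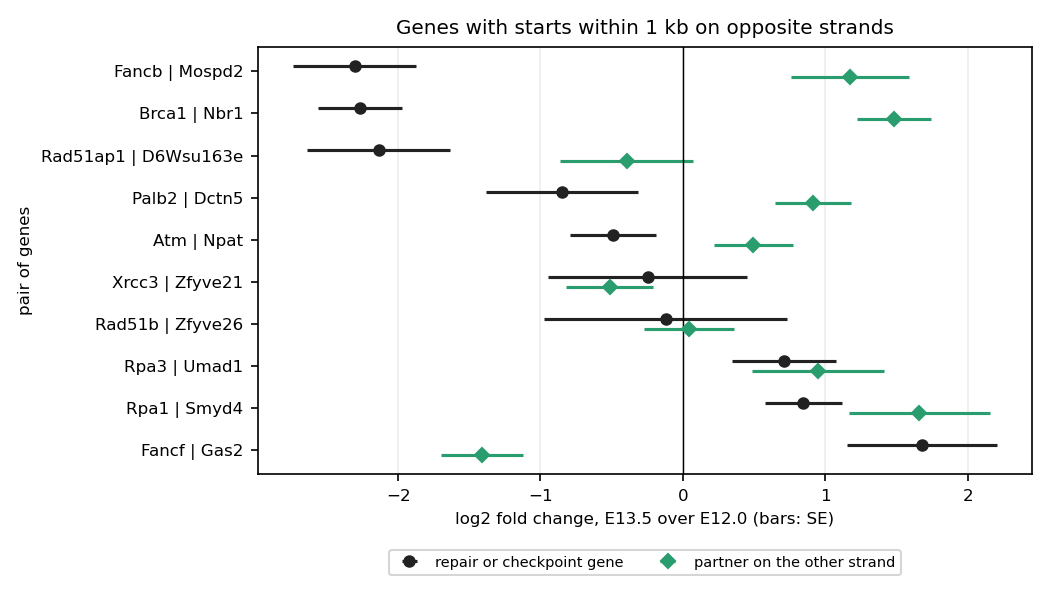
Log2 fold change, E13.5 over E12.0, of 10 repair or checkpoint genes (black circles) and of the protein-coding gene that starts within 1 kb on the other strand (green diamonds), with SE as bars. Among pairs in which both genes passed the test, the marks lie on opposite sides of 0 for Fancb and Mospd2, Brca1 and Nbr1, and Fancf and Gas2, and on the same side for Rpa1 and Smyd4.

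Open chromatin was found at the ends of nearly all of these genes in both stages. An ATAC interval of every library lay within 1 kb of either end for 35 of 35 genes at E13.5 and for 34 of 35 at E12.0, against 91.8% at E13.5 and 87.9% at E12.0 of the protein-coding genes with RNA tested. The exception was Fancc at E12.0, with an interval within 1 kb of an end in 2 of 3 libraries. Its start lies inside the annotated gene, and within 1 kb of that start all 3 E12.0 libraries held an interval. All 19 genes that fell in RNA held an interval in every library of both stages, Bard1 among them. At Bard1 the strongest interval had a fold enrichment, the authors' own value per peak, of 13.4, 14.4 and 13.1 in the E13.5 libraries, against 7.75, 16.01 and 10.4 in the E12.0 libraries. Within their own lists these stood at percentiles of 94.1 to 97.5 at E13.5 and 94.4 to 97.9 at E12.0.

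Across the 31 genes with a known start, the median percentile of the strongest ATAC interval within its list was 94.9 to 97.7 in the E13.5 libraries and 96.8 to 97.9 in the E12.0 libraries. For all tested genes with an interval at the start it was 91.1 to 92.9 at E13.5 and 93.4 to 94.2 at E12.0. Fancm was the lowest of the 31 in every library, at percentiles of 62.1 to 66.4 at E13.5 and 73.2 to 81.8 at E12.0. Fancl was the highest in each E13.5 library, with fold enrichments of 23.6 to 26.2.

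H3K27ac, a mark of active promoters and enhancers, was held in both libraries of a stage by 9 of the 35 genes at E13.5 (25.7%, against 24.1% of protein-coding genes with RNA tested) and by 19 at E12.0 (54.3%, against 38.6%). The libraries of a stage were unequal: 33 and 9 genes held an interval in the E13.5 libraries, against 32 and 22 in the E12.0 libraries. Of all tested genes, 78.4% and 25.4% did so at E13.5, against 65.0% and 43.7% at E12.0, so the counts for both libraries rest on the sparser list of each stage. At a −log10 q of 2 or more, 5 of the 35 genes held the mark in both libraries at E13.5 and 7 at E12.0. No share over all genes was computed at that limit. Per the labels, E12.0 replicate 1 was made with the KAPA kit and the other H3K27ac libraries with the Accel 2S Plus kit, which cannot be told apart from the replicate at E12.0.

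Brca1, Rad51b, Brip1, Blm, Atm and Rpa1 held H3K27ac within 1 kb of an end in all 4 libraries. Brca1, Rad51b, Atm and Rpa1 have a protein-coding partner that starts within 1 kb on the other strand, whereas Brip1 and Blm do not. Near the start of Rad51b the only interval of E12.0 replicate 2 (chr12:79295975-79296347) covers an end of Zfyve26. Near that of Brca1 the only interval of E13.5 replicate 2 (chr11:101552759-101552958) lies inside Nbr1. Which gene of a pair such an interval marks was not tested. Rad51ap1, Fancl and Rpa3 held the mark within 1 kb of either end in both libraries at E13.5 only. In 13 genes this was so at E12.0 only, among them Bard1, Rad54l, Fancb, Fanci, Fancm, Chek1 and Clspn. At the start alone, 8 of the 31 genes with a known start held it in both E13.5 libraries, where 24.6% of all tested genes with a start did. In both E12.0 libraries 17 of the 31 held it, where 40.8% of all tested genes with a start did. Fancl then held it in 1 E13.5 library and Fancm in 1 E12.0 library. Near the start of Rad51ap1 the interval of E13.5 replicate 2 (chr6:126940409-126940766) lies inside its partner D6Wsu163e. Of the 19 genes that fell in RNA, 5 held the mark in both E13.5 libraries and 12 in both E12.0 libraries. Of the 16 others, 4 did so at E13.5 and 7 at E12.0. No share over all genes was computed for genes marked at a single stage or for this split by RNA. Chek2, with the second largest fall in RNA, held the mark in 1 library of each stage, and so did Exo1. With 2 libraries against 2 the smallest p of an exact test is 0.333, so none is given.

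**Figure D5:**
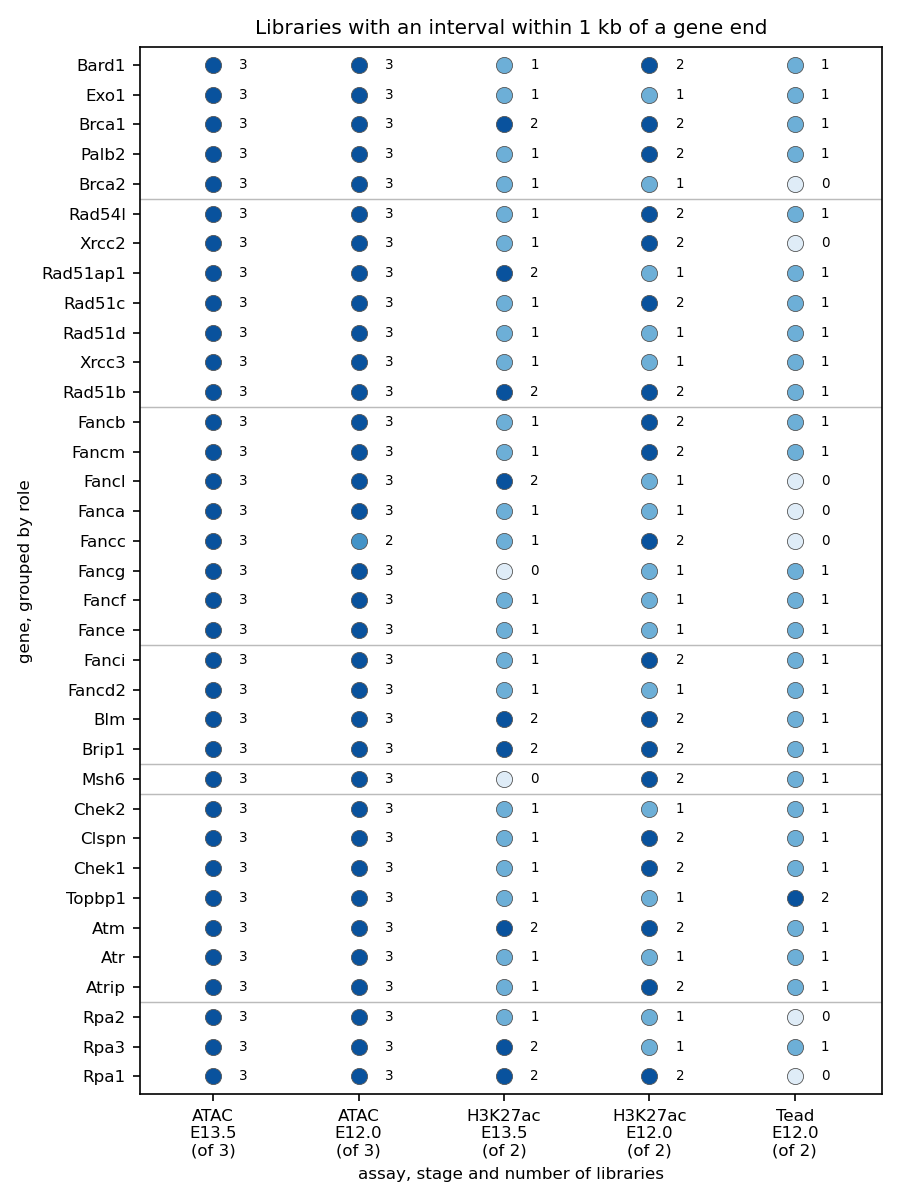
Number of libraries with an interval within 1 kb of an end of each of the 35 genes (rows, grouped by role), for each assay and stage. Darker marks stand for more libraries, and the number is printed beside each mark. The ATAC columns are full but for Fancc at E12.0, the H3K27ac columns hold 9 full marks at E13.5 and 19 at E12.0, and the Tead column holds 1, at Topbp1.

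Tead intervals of both E12.0 libraries lay within 1 kb of an end for 1 of the 35 genes (2.86%, against 6.22% of protein-coding genes with RNA tested). This gene was Topbp1. The interval of replicate 1 was chr9:103305851-103306223, with a fold enrichment of 2.86 and a −log10 q of 1.39, and that of replicate 2 was chr9:103305526-103306301, with a fold enrichment of 3.61 and a −log10 q of 12.6. Their centres lie 710 and 586 bases after the start of Topbp1, so that the printed promoter stretch is outside both. At a −log10 q of 2 or more the interval of replicate 1 no longer counted and no gene of the 35 was left.

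The Tead libraries were unequal too. An interval lay at an end of 1 of the 35 genes in replicate 1, made with the KAPA kit, and of 28 in replicate 2, made with the Accel 2S Plus kit, against 7.84% and 56.5% of all tested genes. In replicate 2 alone the strongest interval of the 35 was at Brca1, with a fold enrichment of 4.89, at the 99.5 percentile of its list, over the start shared with Nbr1. Palb2, Blm, Atm and Rad54l followed, with fold enrichments of 3.71 to 4.11 and percentiles of 97.0 to 98.4. None of these 5 genes had an interval in replicate 1, and with 1 stage no change of Tead binding can be given.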

How the data were processed

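The members and the gene lists were chosen with earlier results of these data known. Per the submitters' processing notes, STAR, UMI-tools and MACS2 were used with the builds GRCm38 and mm10; for the expected counts themselves the sources used here name no tool. The authors deposited expected counts per gene with a length and an effective length for each RNA library, and the deposited peak lists hold, per peak and library, a score, a fold enrichment, and −log10 p and q. Peaks were listed per library, and only their fold enrichment and −log10 q were used. Symbols were found for 48349 of 48709 gene identifiers.

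Expected counts were rounded and fitted with edgeR 4.0.16 (R 4.3.3; filterByExpr, TMM, quasi-likelihood test, Benjamini-Hochberg over 15982 genes, threshold 0.05). DESeq2 1.42.0, limma 3.58.1 on log2(TPM + 1), no expression filter, a replicate block and left-out libraries were alternatives, and the procedure was tested on simulated data. Leaving out mitochondrial genes and centring TPM on the median were added after seeing the data. A count of 1 equals 0.0424 to 0.0476 CPM at E13.5 and 0.118 to 0.138 CPM at E12.0. Replicates differed by more than counting noise, with a chi-square per degree of freedom of 46.7 at E13.5 and 29.7 at E12.0, and none were counted as 1 sample.

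A gene held an interval where 1 base or more overlapped the 1 kb on both sides of either end. Gene ends came from RefSeq, GRCm38.p6. Motifs were searched on both strands in the 250 bases before each start of 32851 RefSeq windows. Exo1, Xrcc2, Fancd2 and Rad51d had no window. All members are named; of each other list, the called gene with the largest rise and the largest fall. Sequences were printed for the member with Tead intervals of both libraries, then for those with a match and the largest fall. A few genes and the results that need them are not reported here.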

Additional observations from a re-analysis of the deposited data

How the results depend on the processing

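With DESeq2, with DESeq2 size factors, with no expression filter and with mitochondrial genes left out, all 35 genes kept their direction and their side of the threshold. On log2(TPM + 1), where the median of all genes was 0.755 in place of 0.05, 6604 genes were higher and 1996 lower, 6 members were higher and 9 lower, and the member median was -0.33. On that scale the values of Rad51b (0.65), Rad51c (0.57), Rad51d (0.40), Xrcc3 (0.48) and Atr (0.46) turned positive. With the median of each library set to 0, an alternative added after seeing the data, 2 members were higher and 20 lower, and Fancc had -0.39. The replicate numbers did not pair the samples (r = 0.01 between stages over 15982 genes, across genes, which are not independent); with the replicate block 3440 genes were higher and Xrcc3 had 0.26. With 1 library left out, 2341 to 2751 genes were higher, 1 to 3 members were higher, and the log2 fold change was -0.78 to 0.33 for Rad51b, -1.08 to 1.86 for Xrcc3 and -0.70 to 0.34 for Fanca. For H3K27ac at E13.5, 14 members held an interval within 5 kb, 5 at a −log10 q of 2 or more, and 9 to 33 with 1 library left out. For H3K27ac at E12.0, 7 did at a −log10 q of 2 or more and 22 to 32 with 1 library left out. For Tead, 0 did within 250 bp, 4 within 5 kb, 0 at a −log10 q of 2 or more, and 1 to 28 with 1 library left out. The cause was not tested for any of these, and for the other windows and −log10 q limits no share over all genes was computed. A lone library left in a stage was assumed to vary like the other stage. Genes with few counts, such as Rad51b, Fancf and Fancg at E12.0, limit what the depth can show.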
